A study of Homo sapiens with 12 samples.

Results

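Antigen presentation was followed here through 9 genes: HLA-B, HLA-C, HLA-E and B2M, which encode chains of MHC class I molecules; TAP1 and PSMB9, which act in making and moving the peptides; CD74, the invariant chain of MHC class II; and the transactivators NLRC5 and CIITA. They were taken by name from the deposited table that holds the S371A mutant, which lists 58302 genes, and by the same gene identifier from the table that holds S55A, which lists 50868. All 9 were found in both tables. They were selected on their role in antigen presentation, with the counts and fold changes of both mutant comparisons known, so their fold changes are a description and carry no p-value.

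MHC class I molecules carry peptides from inside the cell to its surface, where cytotoxic T cells read them. The proteasome cuts the peptides, the TAP transporter moves them into the endoplasmic reticulum, and a loading complex of chaperones fits them into a heavy chain paired with beta-2-microglobulin, the product of B2M. MHC class II molecules, found mostly on professional antigen-presenting cells, carry peptides from the endosomal route; their chains assemble on CD74, and the coactivator CIITA switches on their genes, as NLRC5 does for class I. CD74 is also a surface receptor for the cytokine MIF, together with CD44 and the chemokine receptors CXCR2 and CXCR4.

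The cells were SW1990, a human pancreatic adenocarcinoma line taken from a metastasis in the spleen, and all 12 libraries came from cells kept for 24 h in DMEM without glucose. The groups WT-1 and WT-2 carried wild-type rPHGDH, the group S371A carried rPHGDH with that substitution, and the group S55A carried rPHGDH with that one; PHGDH is the first enzyme of serine synthesis. The labels do not explain the prefix, say whether the cells' own PHGDH was removed, or say whether a group is 1 clone. Each group has 3 libraries; S371A is set against WT-1 (experiment 1) and S55A against WT-2 (experiment 2). Nothing in the labels says that libraries of a group are separate cultures, so the spread between them, and any p-value built on it, may be technical.

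Total counts per library ran from 13667033 to 19240270, and a floor of 3 counts stood for 0.155 to 0.218 CPM (counts scaled to a library's TMM-adjusted total), which covers counting error only. PHGDH itself was lower in both mutants: S371A libraries had 196, 183 and 224 CPM where WT-1 had 470, 495 and 456, and S55A libraries had 364, 359 and 346 CPM where WT-2 had 738, 706 and 734. The mutant form and the lower PHGDH level cannot be told apart in what follows. The ductal epithelial markers KRT19, KRT7, KRT8, KRT18 and EPCAM summed to between 4001 and 4401 CPM in WT-1 and between 4971 and 5794 in S371A; the sums were 2427 to 2656 for WT-2 and 3561 to 3866 for S55A. Of the 5, KRT18 and EPCAM were called higher in S371A and KRT8 and KRT18 in S55A, and their part in the results was not tested. Of the fibroblast markers, PDGFRB was called lower in S371A (21.7 to 10.2 CPM), COL1A1 did not pass the test, and COL1A2, COL3A1 and DCN had 0 counts in that experiment; 0 were called in S55A by edgeR or DESeq2, and 1 had an unadjusted p under 0.05. In bulk RNA, more cells that express a gene and more RNA per cell cannot be told apart.

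CD74 was the gene of the 9 with the largest fold change in both experiments. The WT-1 libraries had 4.59, 3.75 and 4.77 CPM and the S371A libraries 11.4, 11.98 and 13.3. All 3 mutant libraries lay above all 3 wild-type ones, the means were 4.37 ± 0.545 and 12.2 ± 0.977 (SD, n = 3), and the log2 fold change was 1.48 ± 0.13 (SE). The WT-2 libraries had 1.63, 0.87 and 1.19 CPM, which are 29, 12 and 20 counts, and the S55A libraries 10.5, 10.2 and 8.01 CPM, which are 189, 187 and 155 counts. The groups again did not overlap, the means were 1.23 ± 0.383 and 9.59 ± 1.38 CPM, and the log2 fold change was 2.93 ± 0.23. WT-2 had a lower mean than WT-1; levels of the separate tables were not tested against each other.

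The CD74 promoter is shown because CD74 changed most. It is the RefSeq window from 250 bases before to 50 after the annotated start (GRCh38.p14), 5′ to 3′ on the gene's own strand, with capitals marking the motif matches found.
CD74, chr5:150412861-150413160, minus strand: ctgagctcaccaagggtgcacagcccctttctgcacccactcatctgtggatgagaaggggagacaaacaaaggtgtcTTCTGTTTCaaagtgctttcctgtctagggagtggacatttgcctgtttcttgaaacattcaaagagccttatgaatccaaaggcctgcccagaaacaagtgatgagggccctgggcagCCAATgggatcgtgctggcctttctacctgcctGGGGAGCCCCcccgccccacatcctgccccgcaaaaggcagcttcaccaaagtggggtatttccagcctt
The motifs were searched on both strands: GAAANNGAA and GAANNGAAA, overlapping forms of the core that interferon regulatory factors read, the kappa B consensus of NF-kappa-B, TTCNNNGAA for STAT dimers, CCAAT for NF-Y, and TGACG, the core that CREB reads. In this window GAAANNGAA lies on the minus strand at -172, CCAAT at -53 and the kappa B consensus on the minus strand at -20, where a match is placed by its leftmost base counted from the annotated start. The other motifs had no match. The motif forms were revised after matches had been seen, and the GAAANNGAA and kappa B matches of CD74 depend on that revision. Of 35116 RefSeq promoters of the same length, 8.1% hold GAAANNGAA, 5.9% the kappa B consensus and 34.6% CCAAT. A match describes letters and shows no binding.

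Most of the class II genes that CD74 serves had few or no reads. CIITA, their master coactivator, had 1, 3 and 1 counts in the WT-1 libraries, 2 in each S371A one, 0, 1 and 0 in the WT-2 ones, and 0 in each S55A one. Each of these 12 values is at or under the floor of 3 counts, so CIITA was not tested and no fold is given. The class II chain genes HLA-DRA, HLA-DRB1, HLA-DRB5, HLA-DPA1, HLA-DPB1, HLA-DQA1, HLA-DOA and HLA-DOB had between 0 and 7 counts in each library and were too low to test. HLA-DRA, the alpha chain of HLA-DR, had 0 counts in each WT-1 library, 0, 3 and 0 in the S371A ones, 4, 0 and 7 in the WT-2 ones, and 3, 6 and 3 in the S55A ones. HLA-DQB1, HLA-DMA and HLA-DMB, the last 2 of which exchange peptides on class II molecules, were tested, and none of them passed the test in either mutant. HLA-DMA, the highest of these, averaged 4.84 ± 0.375 CPM (SD, n = 3) over WT-1 and 4.61 ± 0.827 over S371A, and 6.29 ± 0.323 over WT-2 and 5.73 ± 0.603 over S55A.

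**Figure D1:**
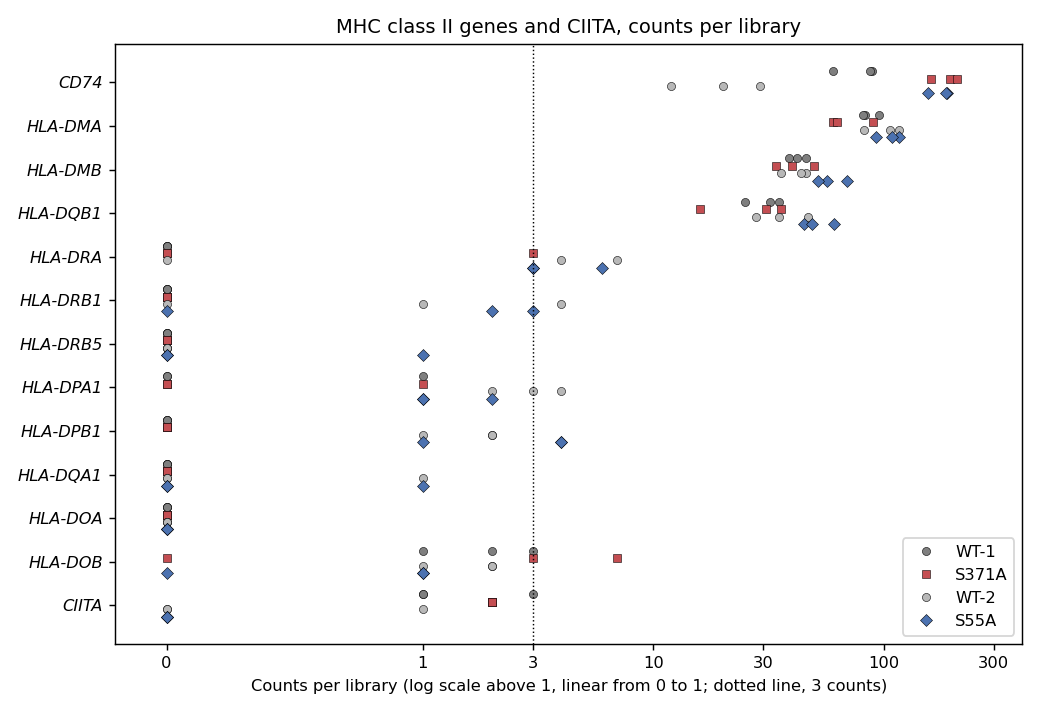
Deposited counts of CD74, CIITA and MHC class II genes in each of the 12 libraries, by group. CD74 reached 161 to 208 counts in S371A and 155 to 189 in S55A, while CIITA stayed between 0 and 3 in all 12 libraries.

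Each list of markers of the cells that normally carry CD74 summed to at most 3.05 CPM in any library. The B cell markers MS4A1, CD79A, CD79B and PAX5 summed to 0.206 to 0.563 CPM for WT-1, 0.576 to 0.637 for S371A, 0.450 to 0.770 for WT-2, and 0.335 to 0.620 for S55A; 0 of the 4 were abundant enough to test. The macrophage and dendritic cell markers CD68, CD14, CSF1R, ITGAX, FCER1G, AIF1 and LYZ summed to 1.5005 to 1.98 CPM for WT-1 and 1.92 to 2.50 for S371A, and to 2.53 to 3.05 for WT-2 and 1.81 to 2.18 for S55A. Of these, 2 could be tested in S371A and 1 in S55A; edgeR called 0, 1 had an unadjusted p under 0.05, in S371A, and DESeq2 gave none an adjusted p. The gene with that p was CD68, whose S371A libraries lay above those of WT-1 (means of 1.10 and 0.555 CPM), as those of CD74 did. So did those of PAX5, which was too low to test (means of 0.349 and 0.170 CPM). In WT-2 the macrophage and dendritic cell sums lay above the CD74 levels, which were 0.87 to 1.63 CPM. The part of such cells in the CD74 values was not tested. PTPRC, which marks leukocytes, had 0 counts in every library but 1 of WT-2, which had 1.

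Of the genes around CD74, its partner CD44, the hyaluronan receptor that signals with it, rose in both mutants. CD44 had 15.7, 11.9 and 12.8 CPM in the WT-1 libraries and 24.6, 24.2 and 26.1 in the S371A libraries, for a log2 fold change of 0.88 ± 0.11 (edgeR quasi-likelihood test across all genes, Benjamini-Hochberg adjusted p = 0.00488). The WT-2 libraries had 11.6, 14.6 and 12.3 CPM and the S55A libraries 19.5, 19.7 and 17.2, for a log2 fold change of 0.55 ± 0.12 (adjusted p = 0.0194). The S55A call was lost without 1 library in 4 of 6 cases, with an adjusted p of up to 0.0706. The ligand MIF did not pass the test in either mutant, and CXCR2 and CXCR4 were too low to test. Among the proteases that trim CD74 or the peptides of class II, CTSD, which encodes cathepsin D, fell in S371A by 0.43 ± 0.08 on the log2 scale (adjusted p = 0.0145). IFI30, a lysosomal thiol reductase that unfolds antigens, fell there by 0.48 ± 0.10 (adjusted p = 0.0276); its call was lost without 1 library in 5 of 6 cases, with an adjusted p of up to 0.0923. The list of class II proteases, which also holds IFI30, had 7 genes tested. Of these, edgeR and DESeq2 each called 2 lower, CTSD and IFI30, and 0 higher in S371A. In S55A each called 0, and 1 had an unadjusted p under 0.05. Over all tested genes, 5.53% were called lower in S371A and 7.06% in S55A.

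B2M, the light chain shared by class I molecules, was higher in S371A. The WT-1 libraries had 58.7, 46.6 and 54.7 CPM and the S371A libraries 90.9, 92.2 and 91.5. The groups did not overlap and the 3 mutant libraries were close together (53.3 ± 6.1 against 91.5 ± 0.66 CPM, SD, n = 3), with a log2 fold change of 0.78 ± 0.08. The WT-2 libraries had 28.6, 23.9 and 19.7 CPM and the S55A libraries 27.8, 27.6 and 33.0. These groups overlapped, with a log2 fold change of 0.29 ± 0.14 that did not reach the call. It was 0.17 without WT-2 replicate 3 and 0.44 without WT-2 replicate 1.

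The heavy chain gene HLA-B was higher in S55A. In experiment 1 its levels were 62.5, 61.6 and 58.7 CPM for WT-1 and 70.03, 63.1 and 67.0 for S371A, which did not overlap but differed by 0.13 ± 0.06 on the log2 scale, without a call. In experiment 2 they were 22.4, 21.3 and 23.4 CPM for WT-2 and 40.01, 36.5 and 39.3 for S55A. Those groups did not overlap, with a log2 fold change of 0.79 ± 0.08. The tables do not give HLA-B the same extent: on chromosome 6 (GRCh38) its model runs from 31269491 to 31357188 in the S371A table, which reaches into HLA-C (31268749 to 31272130), and from 31353872 to 31357188 in the S55A table. Its levels in the separate experiments were therefore not set against each other.

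HLA-E, a class I molecule of low polymorphism that is read by inhibitory receptors of NK cells, was also higher in S55A. Its levels were 121, 107 and 97.2 CPM for WT-1 and 112, 115 and 108 for S371A, which overlapped (log2 fold change 0.04 ± 0.08). Leaving out 1 library gave values from -0.03 (without WT-1 replicate 3) to 0.13 (without WT-1 replicate 1). The WT-2 libraries had 71.2, 65.3 and 75.7 CPM and the S55A libraries 91.2, 94.8 and 89.4. All S55A libraries lay above all WT-2 libraries, with a log2 fold change of 0.38 ± 0.07.

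HLA-C varied between libraries in every group but WT-2. In experiment 1 the levels were 94.1, 63.7 and 57.7 CPM for WT-1 and 70.2, 108 and 69.2 for S371A. In experiment 2 they were 111, 113 and 111 CPM for WT-2 and 154, 116 and 103 for S55A. The groups overlapped in both experiments, with log2 fold changes of 0.20 ± 0.27 and 0.15 ± 0.14. Each rested on 1 library: without S371A replicate 2 the value was -0.04, and without S55A replicate 1 it was -0.03; the highest values were 0.44 without WT-1 replicate 1 and 0.28 without S55A replicate 3.

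Heavy chain genes resemble each other, and reads could have been split between them. Of the 50-base windows of their GENCODE 29 transcripts, 2.7% of those of HLA-B, 5.4% of HLA-C and 4.3% of HLA-E also occur in another gene, while 0 do for B2M and CD74. Strand is not known, and 17.8% of the exonic bases of HLA-B lie opposite another gene.

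The promoters of HLA-B, HLA-C and B2M are shown because B2M was called in S371A, HLA-B in S55A and HLA-C in neither. The windows and capitals are as for CD74.
HLA-B, chr6:31357130-31357429, minus strand: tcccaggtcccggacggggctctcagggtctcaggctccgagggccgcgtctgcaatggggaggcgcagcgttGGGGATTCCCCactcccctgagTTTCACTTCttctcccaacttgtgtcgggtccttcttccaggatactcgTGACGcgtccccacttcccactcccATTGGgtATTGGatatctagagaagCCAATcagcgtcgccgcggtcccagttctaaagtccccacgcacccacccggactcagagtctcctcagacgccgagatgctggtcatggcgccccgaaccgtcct
HLA-C, chr6:31272043-31272342, minus strand: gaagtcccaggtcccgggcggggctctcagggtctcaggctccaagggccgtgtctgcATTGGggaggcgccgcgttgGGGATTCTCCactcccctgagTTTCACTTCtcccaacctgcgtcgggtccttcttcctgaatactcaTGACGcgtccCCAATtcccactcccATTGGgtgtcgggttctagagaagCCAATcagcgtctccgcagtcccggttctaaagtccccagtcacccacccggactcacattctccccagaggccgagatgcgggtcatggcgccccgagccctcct
B2M, chr15:44711267-44711566, plus strand: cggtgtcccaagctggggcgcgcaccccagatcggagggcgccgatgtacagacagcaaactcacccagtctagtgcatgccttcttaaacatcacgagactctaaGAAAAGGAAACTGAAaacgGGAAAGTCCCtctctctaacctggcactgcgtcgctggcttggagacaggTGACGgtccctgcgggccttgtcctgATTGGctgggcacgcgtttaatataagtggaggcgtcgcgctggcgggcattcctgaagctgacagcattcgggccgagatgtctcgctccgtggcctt
HLA-B and HLA-C had the same base at 269 of 296 aligned positions (90.9%). Both hold GAANNGAAA on the minus strand, at -155 in HLA-B and -151 in HLA-C, and TGACG at -106 and -105. The kappa B consensus lies at -177 and, overlapping it, -176 in HLA-B, and at -172 in HLA-C. CCAAT has 3 matches in HLA-B and 4 in HLA-C. B2M holds GAAANNGAA in overlapping copies at -144 and -138, the kappa B consensus at -125, TGACG at -75 and CCAAT at -49. GAANNGAAA occurs in 7.7% and TGACG in 24.6% of the 35116 promoters.

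TAP1, a subunit of the peptide transporter, was called in neither mutant. Its levels were 46.7, 41.5 and 44.1 CPM for WT-1 and 51.6, 51.03 and 47.6 for S371A. They were 36.99, 34.9 and 37.6 CPM for WT-2 and 36.8, 40.6 and 41.6 for S55A. The groups did not overlap in experiment 1 (log2 fold change 0.18 ± 0.06) and overlapped in experiment 2 (0.12 ± 0.08). PSMB9, a catalytic subunit of the immunoproteasome, whose RefSeq start lies 488 bases from that of TAP1, had few reads. It had 45, 28 and 45 counts in the WT-1 libraries and 50, 54 and 52 in the S371A libraries, or 2.32, 1.75 and 2.47 against 3.54, 3.34 and 3.33 CPM. The S371A libraries lay above the WT-1 libraries, with a log2 fold change of 0.63 ± 0.17 that fell just short of the call. PSMB9 had 6, 2 and 6 counts in the WT-2 libraries and 8, 10 and 8 in the S55A libraries, too few to test. The PSMB9 model (chromosome 6, 32844136 to 32859585) spans that of TAP1 (32845209 to 32853978), and 9.5% of the exonic bases of TAP1 lie opposite another gene.

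RefSeq gives TAP1 more than 1 start; the promoter shown, beside that of B2M, is the one that holds GAAANNGAA and the kappa B consensus, and the other holds neither and has TTCNNNGAA at -189. Capitals mark matches as before.
TAP1, chr6:32853655-32853954, minus strand: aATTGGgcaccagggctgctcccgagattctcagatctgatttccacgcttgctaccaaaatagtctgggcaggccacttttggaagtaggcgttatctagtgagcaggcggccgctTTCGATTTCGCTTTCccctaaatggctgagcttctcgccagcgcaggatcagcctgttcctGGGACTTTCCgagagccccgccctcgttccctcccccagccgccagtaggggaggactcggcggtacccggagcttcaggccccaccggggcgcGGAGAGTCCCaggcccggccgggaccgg
It holds GAAANNGAA in overlapping copies on the minus strand at -133 and -127, the kappa B consensus at -72 and 23, and CCAAT in the minus-strand letters at its far end. In S371A the log2 fold change of B2M was 0.78 and that of TAP1 0.18.

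PSMB8, the immunoproteasome subunit encoded beside TAP1 and PSMB9, rose in both mutants. Its levels were 3.92, 3.94 and 4.01 CPM for WT-1 and 7.36, 6.24 and 8.12 for S371A, with a log2 fold change of 0.87 ± 0.13 (adjusted p = 0.00849). The WT-2 libraries had 1.41, 0.943 and 1.19 CPM and the S55A libraries 2.73, 2.73 and 2.27, with a log2 fold change of 1.11 ± 0.23 (adjusted p = 0.0161). The S55A call was lost without 1 library in 3 of 6 cases, with an adjusted p of up to 0.0562. PSMB10, the remaining immunoproteasome subunit, did not pass the test, at 0.05 ± 0.14 in S371A and 0.14 ± 0.19 in S55A. The immunoproteasome list, which also holds constitutive subunits such as PSMB5, had 9 genes tested in S371A and 8 in S55A. In each mutant, edgeR and DESeq2 called PSMB8 alone higher and 0 genes lower. At an unadjusted edgeR p under 0.05, 4 were higher and 0 lower in S371A, and 1 was higher and 3 lower in S55A. The list's median log2 fold change was 0.17 in S371A and -0.15 in S55A. Over all tested genes in S55A, 8.97% were called higher and 7.06% lower. Of PSMB8, 20.6% of the exonic bases lie opposite another gene. Of the 9 genes of the peptide loading list, 1 rose and 3 fell in S371A, where 7.05% of all tested genes were called higher and 5.53% lower. ERAP2, an aminopeptidase that trims peptides in the endoplasmic reticulum, rose by 0.32 ± 0.06 (adjusted p = 0.0161), a call lost without WT-1 replicate 1 or 2, with an adjusted p of up to 0.0589. The chaperones CALR (-0.35 ± 0.04, adjusted p = 0.00396), CANX (-0.28 ± 0.04, adjusted p = 0.00519) and PDIA3 (-0.38 ± 0.04, adjusted p = 0.00238), which fold glycoproteins in general as well as class I chains, fell. In S55A, edgeR and DESeq2 each called 0 of the 9, and 3 had an unadjusted p under 0.05.

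NLRC5, the class I coactivator, was called in neither mutant. Its levels were 5.67, 6.31 and 5.65 CPM for WT-1 and 4.04, 6.30 and 4.93 for S371A. They were 3.997, 3.19 and 3.08 CPM for WT-2 and 3.07, 4.04 and 2.43 for S55A. The groups overlapped in both experiments, with log2 fold changes of -0.20 ± 0.17 and -0.11 ± 0.23. In S371A the value was -0.06 without S371A replicate 1 and -0.39 without S371A replicate 2. In S55A it turned positive without S55A replicate 3 (0.05) or WT-2 replicate 1 (0.02), and was -0.32 without S55A replicate 2. IRF1, an interferon-induced transcription factor that acts on class I and immunoproteasome genes, rose in both mutants. Its levels were 12.5, 11.6 and 11.9 CPM for WT-1 and 18.5, 21.2 and 21.3 for S371A, with a log2 fold change of 0.76 ± 0.09 (adjusted p = 0.0037). The WT-2 libraries had 10.9, 9.06 and 9.13 CPM and the S55A libraries 13.3, 15.001 and 13.95, with a log2 fold change of 0.54 ± 0.12 (adjusted p = 0.0207). RFX5, a subunit of the factor that brings CIITA and NLRC5 to MHC promoters, fell in S55A by 0.35 ± 0.07 (adjusted p = 0.0141). CREB1, which binds the same promoters, rose there by 0.36 ± 0.11 (adjusted p = 0.0495). In S371A the log2 fold changes were of similar size, -0.48 for RFX5 and 0.36 for CREB1, and neither was called. Without 1 library, the S55A calls of IRF1 and RFX5 were each lost in 3 of 6 cases (adjusted p up to 0.0723 and 0.0593) and that of CREB1 in 5 (up to 0.151).

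**Figure D2:**
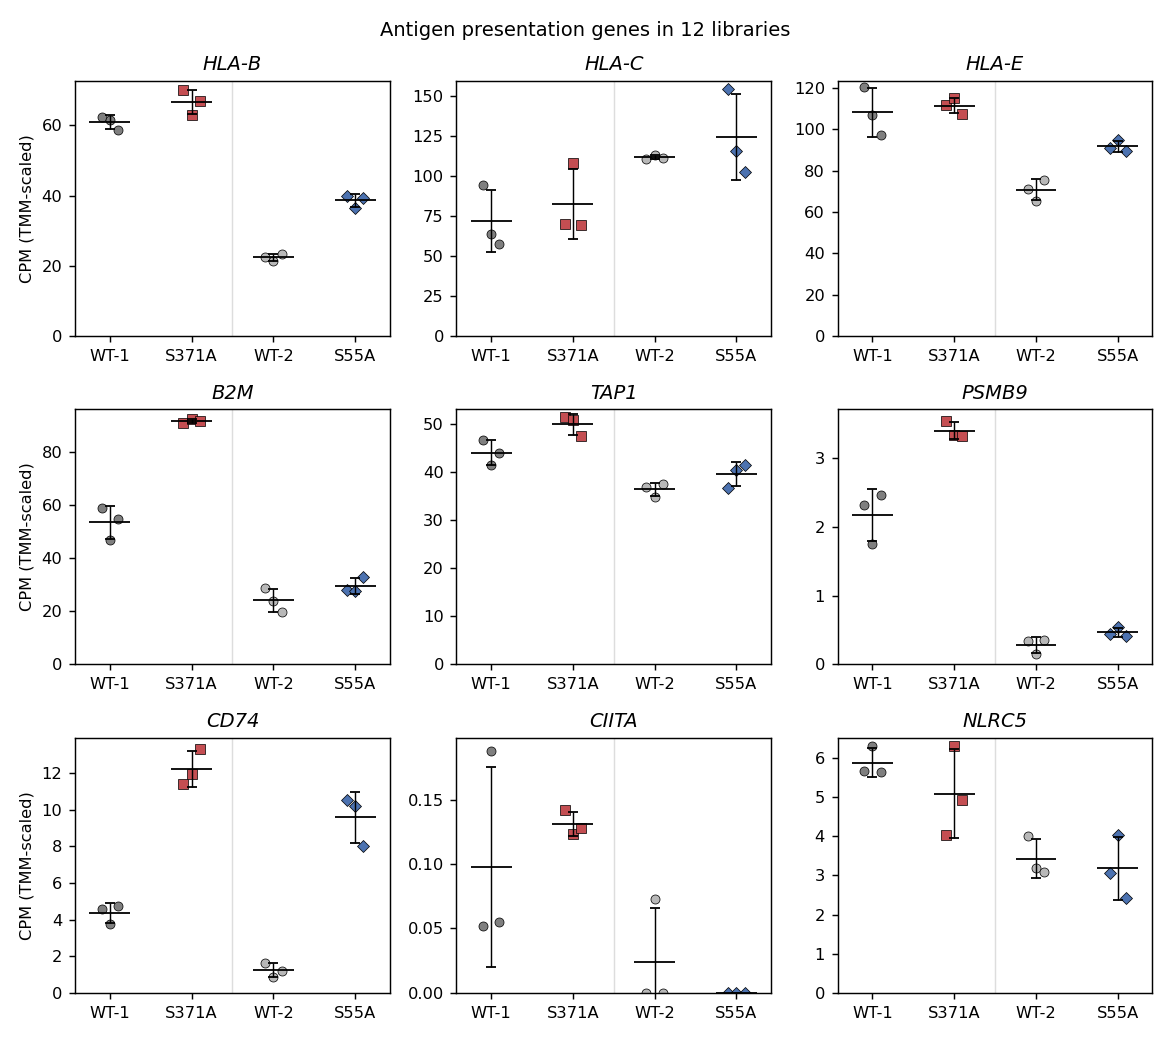
CPM of each of the 9 genes in each library, by group (points, libraries; lines, group means). CD74 lies higher in both mutants, B2M in S371A, and HLA-B and HLA-E in S55A.

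Of the 9 genes, 8 were abundant enough to test in S371A and 7 in S55A. In S371A, 2 of the 8 were called higher, CD74 and B2M, and 0 lower, by edgeR and by DESeq2. At an unadjusted edgeR p under 0.05, 4 were higher and 0 lower. Of the 16235 tested genes, 7.05% were called higher and 5.53% lower. In 5 of the 8 the mutant libraries lay above the wild-type ones without overlap, against 18.2% of all tested genes. In S55A, 3 of the 7 were called higher, CD74, HLA-B and HLA-E, and 0 lower, again by both tools. At an unadjusted edgeR p under 0.05, 3 were higher and 0 lower. Of 15521 tested genes, 8.97% were called higher and 7.06% lower. In 3 of the 7 the S55A libraries lay above without overlap, against 19.5% of all tested genes. The median log2 fold change of those tested was 0.19 in S371A and 0.29 in S55A, against -0.01 over all tested genes in each. The 9 were chosen with these values known, so nothing is read from these shares.

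**Figure D3:**
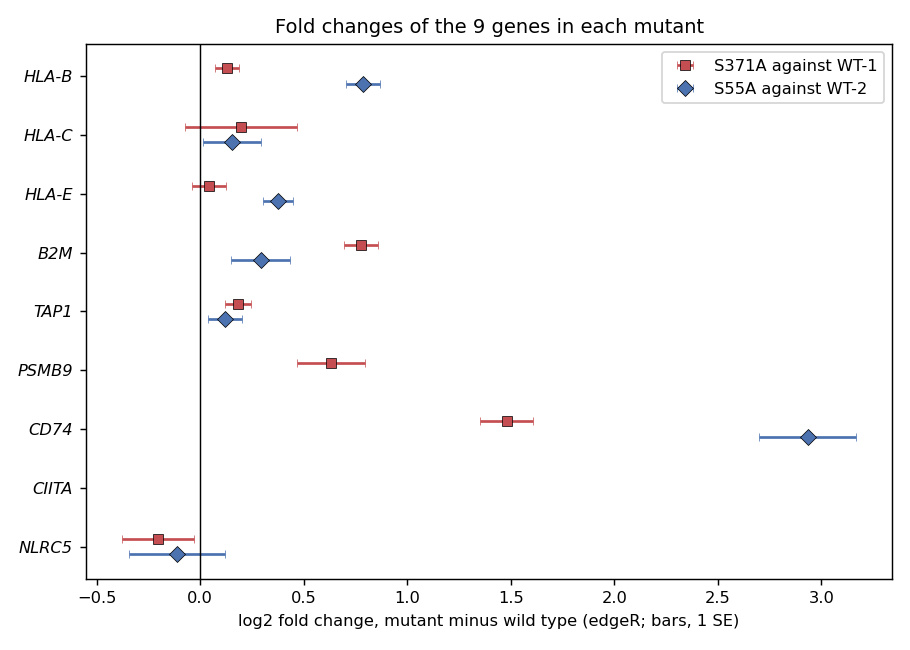
Log2 fold change of each tested gene, mutant minus its own wild type, with bars of 1 SE, for both mutants. CD74 is the highest at 1.48 in S371A and 2.93 in S55A, and NLRC5 the lowest at -0.20 and -0.11, the latter changing sign without 1 library.

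Genes of the wider pathway were called in both directions in each mutant. Of 80 genes of antigen presentation written down in 9 lists, 71 are outside the 9, and 55 of these were tested in each experiment. In S371A, 5 rose and 5 fell (18.2% of the 55, where 12.6% of all genes were called), with a median log2 fold change of 0.04. In S55A, 7 rose and 1 fell (14.5%, where 16.0% of all genes were called), with a median of 0.09. Without 1 library, 3 to 5 rose and 0 to 2 fell in S55A. Over all tested genes, 7.05% were called higher and 5.53% lower in S371A, and 8.97% and 7.06% in S55A. PSMB8, IRF1 and CD44 rose in both mutants. Of the ligands read by other receptors, CD274, which encodes the checkpoint ligand PD-L1, rose in S371A by 0.96 ± 0.17 (adjusted p = 0.0162), from 1.87 ± 0.102 to 3.64 ± 0.647 CPM (SD, n = 3); the call was lost without any 1 of the 3 WT-1 libraries (adjusted p up to 0.0594). In S55A the genes that rose were MR1, which presents microbial vitamin metabolites to T cells (1.22 ± 0.23, adjusted p = 0.00959), ULBP2, a ligand of the NK receptor NKG2D (0.77 ± 0.09, adjusted p = 0.00168), and the adhesion molecule ICAM1 (0.35 ± 0.09, adjusted p = 0.035), whose call was lost without 1 library in 5 of 6 cases (adjusted p up to 0.107). The effects of the mutants differed for 8 of the 55 (14.5%), where 12.5% of 16666 genes differed.

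**Figure D4:**
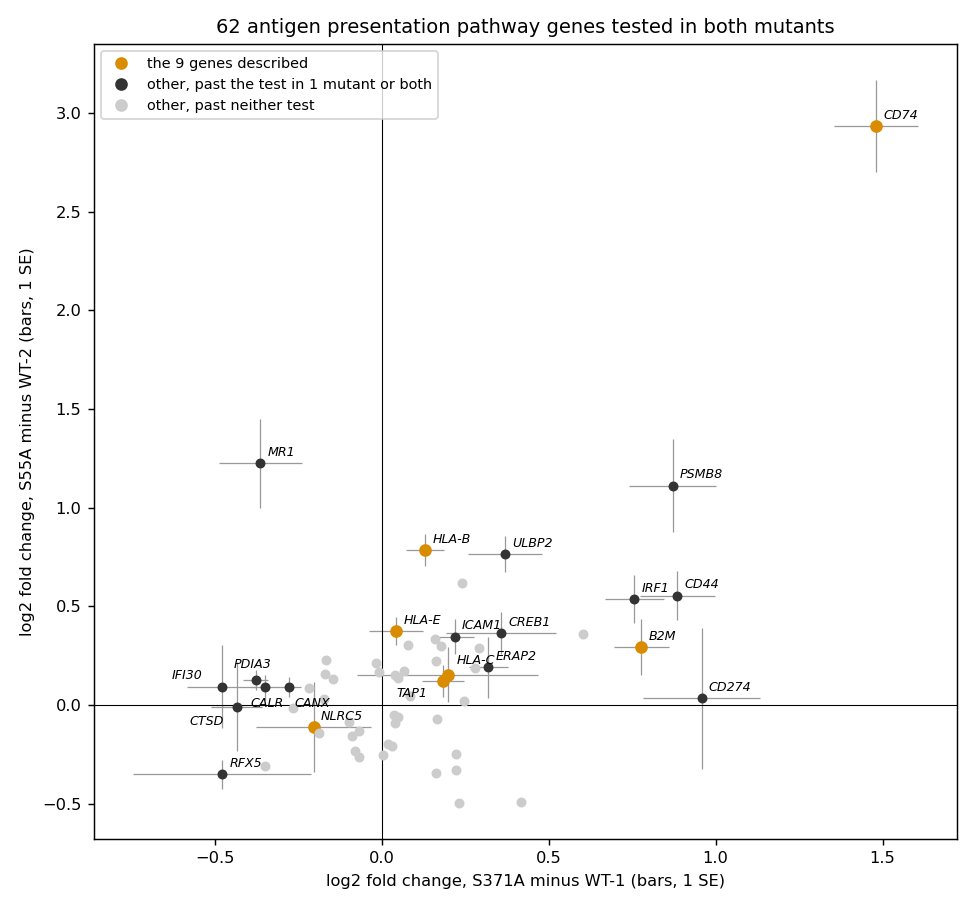
Log2 fold change in S371A (x axis) and in S55A (y axis) of the 62 pathway genes tested in both, with bars of 1 SE for named genes. CD74 stands at the upper right, and MR1 lies below 0 on the x axis and at 1.22 on the y axis.

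Levels of different genes were compared per length, as CPM per kilobase of merged GENCODE 29 exons. In WT-1 the order was HLA-E (36.4), HLA-C (28.6), HLA-B (19.98), TAP1 (9.18), B2M (8.78), CD74 (1.37), PSMB9 (0.71) and NLRC5 (0.475), with CIITA at or under the floor. HLA-E and HLA-C overlapped between libraries, as did TAP1 and B2M. On merged exons, B2M, whose product pairs with class I heavy chains, lay below HLA-B in each group. The values were 15.1 against 21.9 in S371A, 3.96 against 7.33 in WT-2 and 4.85 against 12.7 in S55A. Libraries did not overlap in any of the 4 groups. With the longest transcript as the length B2M lay above TAP1 in WT-1 (22.2 against 14.9) and below HLA-B (39.4). That length also put HLA-B above HLA-C (38.2) and NLRC5 (0.862) above PSMB9 (0.815) in WT-1. In S371A, on merged exons, B2M stood above TAP1 with no overlap. These orders hold only for the lengths named. The HLA-B model of experiment 2 and the B2M model of both experiments do not have the GENCODE 29 coordinates. The lengths used may therefore not be those of the counted models. B2M has 15 transcripts, 6079 bases of merged exons and a longest transcript of 2403 bases. A shorter length would place it higher, and which transcripts these cells make was not determined.

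Over the 12 libraries, with each table centred on its own mean, the genes whose log2 CPM was most like that of CD74 were RASGRF2 (Pearson r = 0.993), SNX9 (0.993), KDM2A (0.992), CLIC5 (0.988) and ZMIZ1 (0.987), among 11335 genes. CLIC5, a chloride channel family member, had the largest fold changes of these on the log2 scale, 1.01 ± 0.13 in S371A and 2.48 ± 0.19 in S55A. For TAP1 they were PRDM10 (0.95), TLDC1 (0.935), CSRNP2 (0.919), MTMR10 (0.902) and KLK10 (0.89). Among the 9, CD74 went with HLA-B (0.924) and HLA-E (0.815), HLA-B with HLA-E (0.875), and B2M with TAP1 (0.79). These are descriptions: the points share libraries, depth and the split into mutant and wild type.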

How the data were processed

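RNA of 12 SW1990 libraries was sequenced. The authors deposited whole-number counts per gene and FPKM, which are those counts over a gene length and the library total, per the file headers and values. Per the submitters' processing notes, CASAVA, HISAT2 2.0.4, StringTie 1.3.0, edgeR, GRCh38 and mm10 were used, in roles not stated there; the sources used here give neither the counting step nor the strand setting. Gene models differ in extent between the tables for HLA-B and CIITA, which could move their counts. The same holds for HLA-C, whose FPKM length was 6232 bases in experiment 1 and 5961 in experiment 2 at the same outer coordinates. The deposited counts went through edgeR 4.0.16 (R 4.3.3) with filterByExpr, TMM factors, the robust quasi-likelihood F test and Benjamini-Hochberg adjustment at 0.05 over all tested genes, each mutant against its own wild type. The fit was tested on simulated data. SE is the log2 fold change over the root of F. RefSeq promoters were found for 6 of the 9 genes. The 9 genes, lists and motifs were chosen with earlier results of these data known. Named genes were the 9, PHGDH, each pathway gene past the test, and the 5 genes most like CD74 and TAP1 with a mean of at least 5 CPM; others named are members of the lists. Alternatives were other scalings, DESeq2 1.42.0, other filters, the replicate number as a block and each library left out. Some items are not reported here.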

Additional observations from a re-analysis of the deposited data

Results flagged for a closer look

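The mutant effect differed between S55A and S371A for 8 of 55 pathway genes outside the 9, where 12.5% of 16666 genes did (edgeR quasi-likelihood test of the difference over 12 libraries, Benjamini-Hochberg adjusted). Mutant and experiment cannot be told apart. On the log2 scale the S55A effect was higher by 0.43 for CALR (adjusted p = 0.00377), 0.36 for CANX (0.00169), 0.50 for PDIA3 (0.00024), 0.32 for SPPL2A, which cleaves the stub of CD74 (0.0159), and 1.58 for MR1 (0.00301). The difference was -0.48 for PSMB5, a constitutive proteasome subunit (adjusted p = 0.0135), -0.56 for MICA (0.0141) and -0.91 for MICB (0.0114), both ligands of NKG2D. PSMB5, SPPL2A, MICA and MICB did not pass the test in either mutant alone.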

How the results depend on the processing

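The calls of CD74 in both mutants, of B2M in S371A and of HLA-B and HLA-E in S55A were kept in all 12 alternatives of each comparison. These genes were chosen with their values known, and the alternatives reuse the same libraries. Their kept calls describe the processing and are no further evidence of a change. Of the pathway genes outside the 9, CREB1 was called in 5, IFI30 in 6 and ICAM1 in 7 of the 12, CD274 and, in S55A, IRF1 and CD44 in 8, ERAP2, RFX5 and, in S55A, PSMB8 in 9, and CTSD in 11; the others were called in all 12. Same-numbered libraries did not deviate together (correlations from -0.0851 to -0.00289), so the numbers are not read as pairs; with the replicate number as a block, 784 genes were called in S371A (3 pathway genes higher and 3 lower), 1632 in S55A and 1098 for the difference of effects, against 2042, 2488 and 2087. With upper quartile factors, 2 pathway genes fell in S55A. Leaving out 1 library gave 917 to 1576 called genes in S371A, with 3 to 5 pathway genes higher and 4 to 6 lower, 1344 to 2491 in S55A, with 3 to 5 higher and 0 to 2 lower, and 1407 to 2257 for the difference. The S371A count was 997, 917 and 927 without WT-1 replicate 1, 2 and 3 and 1191 and 1118 without S371A replicate 2 and 3; the S55A count was 1344 and 1485 without WT-2 replicate 1 and 3 and 1416 and 1372 without S55A replicate 1 and 2. Fewer libraries enter these fits. Depth limits CIITA, PSMB9 in experiment 2 and the class II chains, where a change was not detectable.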

Other observations

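The deposited FPKM values divide by a gene length. For 95.2% of 10350 genes it equals, within 1 base, the summed lengths of all distinct exons over all GENCODE 29 transcripts. These were genes well counted in every library of experiment 1, with GENCODE 29 coordinates and summed and merged lengths that differ. For them the FPKM length was 1.62 times the merged exon length in the median, so FPKM understates genes with many overlapping transcripts. On deposited FPKM, HLA-E stood at 27.5, HLA-C at 11.6, HLA-B at 9.98, TAP1 at 8.08 and B2M at 4.20 in WT-1. TAP1 and B2M did not follow the summed length. Their FPKM lengths were 5481 and 12755 bases, where the distinct exons sum to 7778 and 13254.

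The wild-type groups did not start alike for genes with the same coordinates in both tables. B2M averaged 53.3 CPM over WT-1 and 24.1 over WT-2, and PSMB9 averaged 2.18 and 0.279. These levels come from tables normalized separately and were not tested.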
